A study of Mus musculus with 6 samples.

Results

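The insulin-like growth factor (IGF) axis was followed in C2C12 cells through 10 genes, of the 19938 genes that the arrays resolve. These are the ligands Igf1 and Igf2, the receptor Igf2r, the signalling adaptor Irs1, and 6 binding proteins, Igfbp2, Igfbp3, Igfbp4, Igfbp5, Igfbp6 and Igfbp7. They were taken as named genes of the pathway, with earlier results of these arrays known, and each was read from the probe set (the group of probes that reports 1 transcript) that names that gene alone and was brightest over the 6 arrays. All 10 genes had such a probe set, and Irs1 had a second, dimmer one, so that 11 probe sets were examined.

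The arrays compared shPARP2 cells, which carried a lentiviral shRNA against Parp2, and scPARP2 cells, which carried a scrambled shRNA (n = 3 samples each, 1 array per sample). C2C12 is a line of mouse myoblasts, the proliferating precursors that can fuse into muscle fibres. Both lines had received a lentivirus and grew in DMEM with glucose and serum, which the study's methods give as fetal bovine serum. They were kept under puromycin according to the same methods, so the control cells also carried a vector and a hairpin. Each condition is 1 cell line made with 1 interfering sequence, and an effect of the line cannot be told apart from an effect of Parp2. Whether the replicates came from separate cultures is not stated in the labels or methods. The p-values set the difference between the lines only against the spread of these samples within each line, which may be technical variation.

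The values are log2 expression values, in which a difference of 1 is a doubling of the signal. Parp2, the poly(ADP-ribose) polymerase that the shRNA targets, had values of 7.86, 8.14 and 7.91 on the shPARP2 arrays and 8.94, 9.13 and 9.05 on the scPARP2 arrays. No shPARP2 array reached the lowest scPARP2 array, and 47.6% of the Parp2 signal was left (limma adjusted p = 0.00103). The replicates of shPARP2 were spread more widely than those of scPARP2, with a median SD over all probe sets of 0.142 and 0.0753. All 8 myoblast markers had a mean above the median of all probe sets, Pax7 only just (percentile 50.6). Their summed linear signal was 22100 to 25900 in shPARP2 cells and 13500 to 13900 in scPARP2 cells. Of the 8, 6 rose at a limma adjusted p under 0.05 (75.0%, beside 24.0% of all genes called), and Myod1 and Pax7 did not pass. Of 29 measured markers of adipocytes, bone and cartilage cells, leukocytes, endothelium and epithelium, 8 lay above the same median. Of these 29 markers 0 rose and 3 fell, beside 12.4% of all genes called higher and 11.6% called lower. The 3 that fell, named after their values were seen, were Lpl, Sox9 and Cd68, with log2 fold changes of -1.99, -1.73 and -0.72. Each was the only marker of its list that passed: Lpl of 6 adipocyte markers, Sox9 of 6 bone and cartilage markers and Cd68 of 7 leukocyte markers. For adipocytes the summed signal was 2650 to 2900 in shPARP2 cells and 6030 to 6090 in scPARP2 cells. For bone and cartilage it was 1390 to 1470 in shPARP2 cells and 3030 to 3200 in scPARP2 cells. For leukocytes it was 632 to 643 in shPARP2 cells and 710 to 748 in scPARP2 cells. These sums include Lpl, Sox9 and Cd68, and the gaps between the lines lie mainly in these 3 genes. Lpl had means of 10.07 in shPARP2 cells and 12.06 in scPARP2 cells, and Sox9 had means of 9.51 and 11.23. The sums therefore largely restate single genes and do not describe the other markers of each list. The sums overlapped between shPARP2 and scPARP2 cells for endothelium (335 to 418 and 388 to 405) and epithelium (589 to 673 and 577 to 668). The part of these markers in the IGF results was not tested, and in such bulk RNA fewer cells of a type and less RNA per cell cannot be told apart.

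IGF1 and IGF2 are secreted peptides that act on the same cells or their neighbours through the IGF1 receptor, a tyrosine kinase that passes the signal through IRS1 to PI3K, AKT and mTOR. The IGF2 receptor binds IGF2 and carries it to lysosomes for degradation. The IGF binding proteins hold the ligands outside the cell, where they can shield them from the receptor or keep them in reserve, and proteases such as PAPP-A cleave some of them. In muscle, IGFs promote both the growth of myoblasts and their differentiation, and C2C12 cells make their own IGF2 as they differentiate.

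Of the 10 genes, 4 rose in shPARP2 cells (Igf1, Igf2, Igfbp2 and Igfbp3), 5 fell (Irs1, Igfbp4, Igfbp5, Igfbp6 and Igfbp7), and Igf2r did not pass the test (limma, Benjamini-Hochberg adjusted p under 0.05 over all 35556 probe sets). Of the 10 genes 90.0% passed, beside 24.0% of all genes, 12.4% as higher and 11.6% as lower. Since the 10 were chosen with earlier results known, their share is a description. The shPARP2 and scPARP2 arrays did not overlap for any of the 10 genes, which was the case for 42.1% of all genes. Igf1, Igfbp2, Igfbp3 and Igfbp5 passed with a change of at least 2-fold, as did 3.50% of all genes. The changes ran both ways, so the median log2 fold change of the 10 genes was -0.09, beside -0.02 over all genes, while the median of its absolute size was 0.85, beside 0.14 over all genes.

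**Figure D1:**
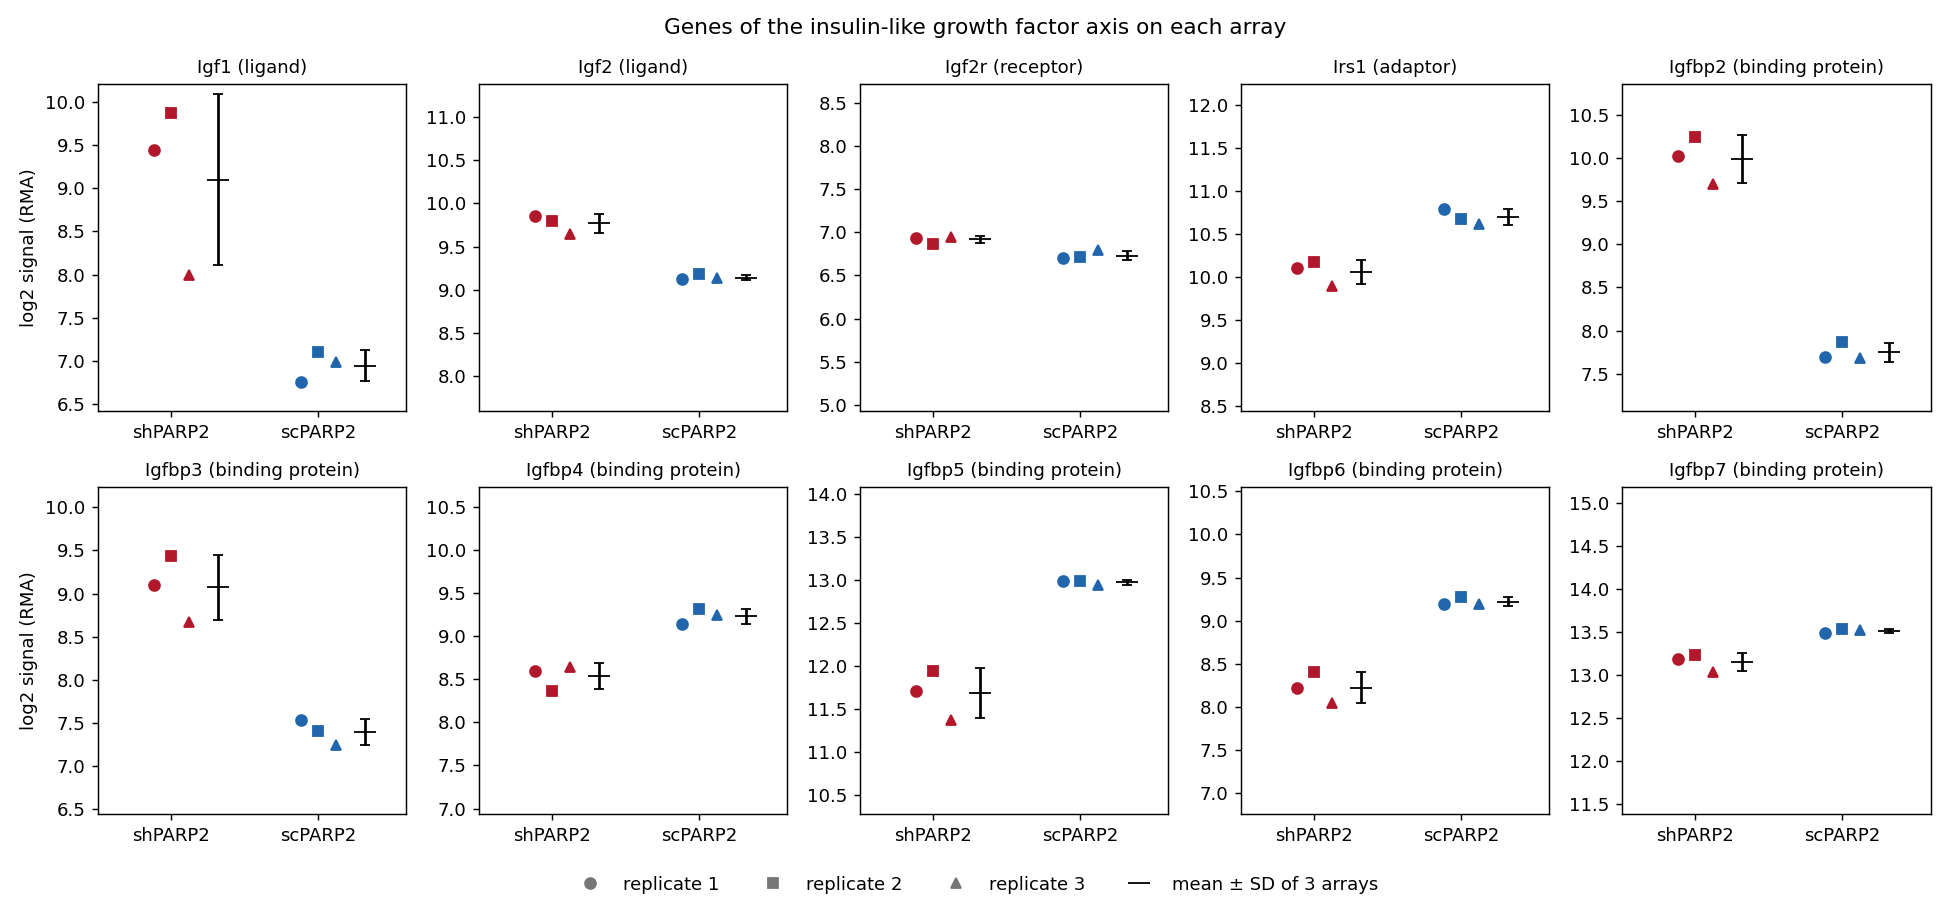
Log2 expression value (y axis) of each of the 10 genes on every array, with shPARP2 samples left of scPARP2 samples. Points are single arrays, with a shape for each replicate, and the bars beside them are the mean ± SD of 3 arrays. The arrays of the lines do not overlap in any panel, and Igf1 has the widest spread within shPARP2, from 7.99 to 9.88.

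The sequences before the annotated starts of 5 of the genes are shown because they belong to the results described next. Igfbp2 and Igfbp5 are neighbours that moved in opposite directions, Igf1 is the ligand with the larger rise, Igfbp4 is one of the binding proteins that fell, and Irs1 is the adaptor. Each is the run of 250 bases before a RefSeq gene start (GRCm38.p6), written 5′ to 3′ on the strand of the gene: Igfbp2 at chr1:72824230-72824479 on the plus strand, Igfbp5 at chr1:72874866-72875115 on the minus strand, Igf1 at chr10:87860861-87861110 on the plus strand, Igfbp4 at chr11:99040994-99041243 on the plus strand and Irs1 at chr1:82291440-82291689 on the minus strand. Capitals mark matches, on either strand, to the GC box GGGCGG, the TATA box TATAAA, the E-box CAGCTG of the kind MyoD binds, and the antioxidant response element core TGACNNNGC.
Igfbp2: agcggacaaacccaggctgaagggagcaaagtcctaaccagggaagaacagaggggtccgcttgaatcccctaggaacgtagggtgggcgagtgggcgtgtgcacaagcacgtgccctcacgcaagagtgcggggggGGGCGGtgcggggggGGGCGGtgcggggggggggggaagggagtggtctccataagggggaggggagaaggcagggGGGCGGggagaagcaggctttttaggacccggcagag
Igfbp5: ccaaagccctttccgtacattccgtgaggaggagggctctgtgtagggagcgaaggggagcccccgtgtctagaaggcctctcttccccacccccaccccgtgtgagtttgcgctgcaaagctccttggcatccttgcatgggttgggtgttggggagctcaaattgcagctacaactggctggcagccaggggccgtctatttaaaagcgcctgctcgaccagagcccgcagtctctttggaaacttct
Igf1: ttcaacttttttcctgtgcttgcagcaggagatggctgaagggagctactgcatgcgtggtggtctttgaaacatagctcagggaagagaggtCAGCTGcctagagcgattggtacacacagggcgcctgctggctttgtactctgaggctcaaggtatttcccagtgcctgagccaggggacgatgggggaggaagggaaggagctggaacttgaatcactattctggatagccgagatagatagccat
Igfbp4: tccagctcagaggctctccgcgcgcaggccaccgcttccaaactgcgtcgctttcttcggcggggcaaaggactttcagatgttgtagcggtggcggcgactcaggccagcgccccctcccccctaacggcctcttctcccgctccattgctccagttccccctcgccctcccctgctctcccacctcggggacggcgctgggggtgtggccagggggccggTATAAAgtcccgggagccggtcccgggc
Irs1: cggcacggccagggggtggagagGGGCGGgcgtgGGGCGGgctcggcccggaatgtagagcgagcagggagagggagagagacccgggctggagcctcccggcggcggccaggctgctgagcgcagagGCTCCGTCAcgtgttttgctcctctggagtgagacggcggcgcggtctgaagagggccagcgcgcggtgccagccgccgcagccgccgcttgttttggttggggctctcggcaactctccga

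Igfbp2 has a second annotated window, at chr1:72825137-72825386, which is not printed and held none of the motifs searched. The window of Igfbp2 printed held 3 GC boxes and that of Irs1 held 2, whereas the window of Igfbp5 held none of the motifs searched. The E-box of Igf1 lay 157 to 152 bases before the start, and the TATA box of Igfbp4 lay 28 to 23 bases before it. The element core of Irs1 lay on the other strand, 122 to 114 bases before the start. Over the 14 windows of the 10 genes, GGGCGG was found in 6, TATAAA in 2, CAGCTG in 1, TGACNNNGC in 1 and the FOXO core TGTTTAC in 0. Among all 32851 windows of the same length, the shares were 32.7% for GGGCGG, 12.4% for TATAAA, 13.0% for CAGCTG, 10.2% for TGACNNNGC and 3.17% for TGTTTAC. No 2 of these motifs overlapped in the windows printed, and the matches are descriptions of the letters, since binding was not measured.

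Both ligands were higher in shPARP2 cells. Igf1, the ligand that growth hormone induces in liver and that muscle makes locally, had values of 9.44, 9.88 and 7.99 on the shPARP2 arrays and 6.75, 7.10 and 6.98 on the scPARP2 arrays. All shPARP2 arrays lay above all scPARP2 arrays, but replicate 3 of shPARP2 was far below its other replicates. The means were 9.10 ± 0.99 and 6.94 ± 0.18 (SD, n = 3 each), a log2 fold change of 2.16 (SE 0.46, 95% interval 1.05 to 3.27) or 4.47-fold (limma adjusted p = 0.021). The interval is the widest of the 10 genes, and the scPARP2 values lie near the medians of whole arrays, 7.04 to 7.18, with detection calls not used here. The call on Igf1 was lost without scPARP2 replicate 1, 2 or 3 (adjusted p = 0.0758, 0.0625 and 0.0678) and without shPARP2 replicate 1 (0.0757), with a log2 fold change of 1.77 to 2.71 over the fits that left out 1 array.

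Igf2, the ligand encoded by an imprinted gene and made during muscle differentiation, had values of 9.86, 9.80 and 9.65 on the shPARP2 arrays, against 9.12, 9.18 and 9.13 on the scPARP2 arrays. The shPARP2 arrays were all higher, and the gap between the nearest arrays of the lines was 0.47. Its log2 fold change was 0.63 (SE 0.08), or 1.55-fold (limma adjusted p = 0.00277), with means of 9.77 ± 0.11 and 9.14 ± 0.03 (SD, n = 3 each). Igf2 was smaller in change than Igf1 but far more even between replicates, and its call held in all 14 alternative fits. A transcript that lies inside Igf2, Mir483, had means of 8.06 ± 0.15 in shPARP2 cells and 8.15 ± 0.07 in scPARP2 cells (limma adjusted p = 0.609), and Igf1os, which overlaps Igf1, had means of 4.95 ± 0.03 and 5.13 ± 0.09 (adjusted p = 0.150). Neither Mir483 nor Igf1os passed the test, and both were chosen after their values were seen.

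Of the receptor and the adaptor, only Irs1 passed the test. Igf2r, the receptor that clears IGF2, had values of 6.93, 6.87 and 6.95 on the shPARP2 arrays and 6.70, 6.71 and 6.79 on the scPARP2 arrays. The arrays were separated by only 0.08, and Igf2r lay at percentile 44.2 of mean signal over all probe sets. Its log2 fold change of 0.19 (95% interval 0.03 to 0.34) did not pass (limma adjusted p = 0.108), although it did when probe sets under the 40th percentile of mean signal were left out before the fit (adjusted p = 0.0491). The antisense transcript Airn, which overlaps Igf2r and was chosen after its values were seen, had a log2 fold change of -0.42 (adjusted p = 0.0838), and it passed in the same setting (0.0433) and when only probe sets that name 1 gene were tested (0.0361).

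Irs1, the adaptor that links the IGF1 and insulin receptors to PI3K, fell. Its brightest probe set had values of 10.11, 10.18 and 9.90 on the shPARP2 arrays and 10.79, 10.67 and 10.62 on the scPARP2 arrays. The highest shPARP2 array was 0.44 below the lowest scPARP2 array. The log2 fold change was -0.63 (SE 0.10), which leaves 64.5% of the signal (limma adjusted p = 0.00584). The dimmer probe set of Irs1 had values of 6.15, 6.12 and 6.04 on the shPARP2 arrays and 6.45, 6.18 and 6.40 on the scPARP2 arrays. Here too the shPARP2 arrays were lower, but by as little as 0.03 at the nearest pair, and the log2 fold change of -0.24 did not pass (limma adjusted p = 0.135).

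Among the binding proteins 2 rose and 4 fell. Igfbp2, a carrier abundant in serum, had the largest change of the 10 genes in the fit as reported, close to that of Igf1. Its values were 10.02, 10.25 and 9.70 on the shPARP2 arrays and 7.69, 7.87 and 7.68 on the scPARP2 arrays. The lowest shPARP2 array was 1.83 above the highest scPARP2 array, the widest separation among the 10 genes. The log2 fold change was 2.24 (SE 0.15, 95% interval 1.89 to 2.60), or 4.73-fold (limma adjusted p = 0.000321). Igf1 lay above Igfbp2 with array weights (2.31 and 2.26) and without shPARP2 replicate 3 (2.71 and 2.39).

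Igfbp3, the main IGF carrier of serum, had values of 9.10, 9.44 and 8.67 on the shPARP2 arrays and 7.53, 7.41 and 7.24 on the scPARP2 arrays. All shPARP2 arrays were higher, with 1.14 between the nearest arrays. The log2 fold change was 1.68 (SE 0.20, 95% interval 1.20 to 2.15), or 3.2-fold (limma adjusted p = 0.00234). Igfbp1, a binding protein of liver whose gene lies 3.54 kb from Igfbp3 and which was named after its values were seen, did not pass the test. Its means were 6.39 ± 0.10 in shPARP2 cells and 6.56 ± 0.08 in scPARP2 cells, and the arrays overlapped (log2 fold change -0.17, limma adjusted p = 0.248).

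Igfbp5, a binding protein that C2C12 cells secrete as they differentiate, had values of 11.71, 11.94 and 11.37 on the shPARP2 arrays and 12.99, 12.98 and 12.94 on the scPARP2 arrays. It showed the deepest fall of the 10 genes, and a full log2 unit lay between the nearest arrays. The log2 fold change was -1.30 (SE 0.14, 95% interval -1.64 to -0.95), which leaves 40.7% of the signal (limma adjusted p = 0.00194). Igfbp5 and Igfbp2 lie 5.59 kb apart on chromosome 1 and moved in opposite directions. Among the 10 genes, no other pair lies within 100 kb of each other.

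Igfbp6, which prefers IGF2 to IGF1, had values of 8.22, 8.40 and 8.04 on the shPARP2 arrays and 9.19, 9.27 and 9.19 on the scPARP2 arrays. All shPARP2 arrays were lower, by at least 0.79. With a log2 fold change of -1.00 (SE 0.10, 95% interval -1.24 to -0.75), 50.1% of the signal was left (limma adjusted p = 0.00149).

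Igfbp4, mostly an inhibitor of IGF action, had values of 8.60, 8.36 and 8.64 on the shPARP2 arrays and 9.14, 9.31 and 9.25 on the scPARP2 arrays. The shPARP2 arrays lay lower by at least 0.50. The log2 fold change was -0.70 (SE 0.10), and 61.7% of the signal was left (limma adjusted p = 0.00437).

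Igfbp7, a related secreted protein with low affinity for IGFs, had values of 13.18, 13.23 and 13.04 on the shPARP2 arrays and 13.49, 13.53 and 13.52 on the scPARP2 arrays. The arrays were separated by 0.26, and the probe set is among the brightest, at percentile 99.4 of mean signal. Its log2 fold change of -0.37 (SE 0.07, 95% interval -0.54 to -0.19) leaves 77.6% of the signal (limma adjusted p = 0.017). The call on Igfbp7 was lost without scPARP2 replicate 1, 2 or 3 (adjusted p = 0.0661, 0.0766 and 0.0789), and also when each array was centred on its median (0.0593).

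**Figure D2:**
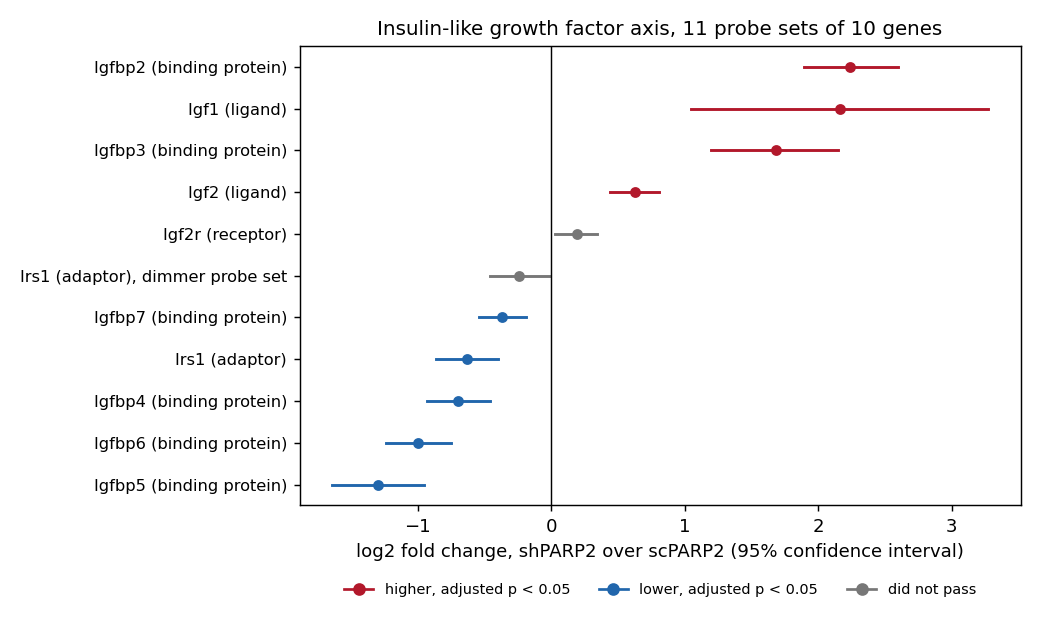
Log2 fold change of shPARP2 over scPARP2 (x axis) for the 11 probe sets of the 10 genes (rows), with points for the limma estimate and bars for the 95% interval (n = 3 arrays per line). Igfbp2 lies farthest to the right at 2.24 and Igfbp5 farthest to the left at -1.30, grey probe sets did not pass, and the interval of Igf1 is the widest.

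The shPARP2 replicates lay in much the same order over the 9 genes that passed. Replicate 2 was the highest shPARP2 array for 7 of the 9 genes and replicate 3 the lowest for 8 of the 9, among genes that rose and genes that fell. The medians of the whole arrays ran the other way, at 7.04 for replicate 2 and 7.18 for replicate 3, with 7.13 for replicate 1. Replicate 3 was thus the array nearest to the scPARP2 mean for each of the 4 genes that rose, and replicate 2 for 4 of the 5 that fell. Outside the 10 genes, Ccn3, Dcn and Mymk also had replicate 2 highest and replicate 3 lowest, while Rheb and Fbxo32 did not. These examples were chosen after their values were seen, and the share of all genes with this order was not counted. The part of this order in the fold changes was not tested.

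**Figure D3:**
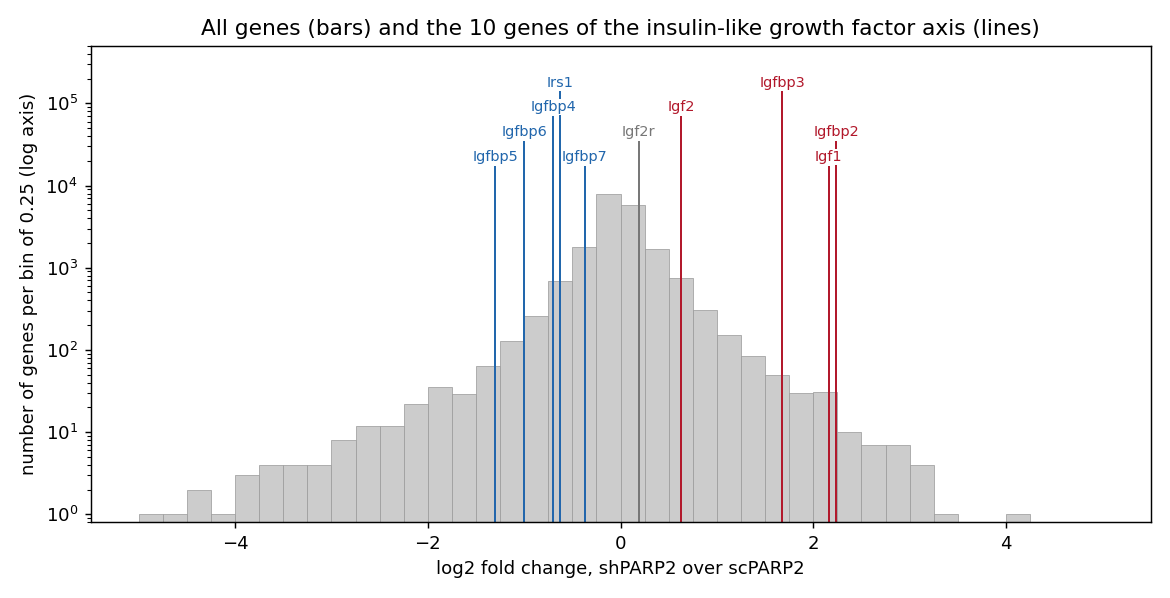
Number of genes (y axis, log scale) in bins of 0.25 of the log2 fold change of shPARP2 over scPARP2 (x axis), with a vertical line at the value of each of the 10 genes. Igf1, Igfbp2 and Igfbp3 lie in the right tail at 1.68 to 2.24, and Igf2r lies near the centre at 0.19.

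Among the other receptors, adaptors and carriers of the axis, 14 genes were measured. Of these 1 rose, 4 fell and 9 did not pass (35.7% passed, beside 24.0% of all genes), with a median log2 fold change of -0.16, beside -0.02 over all genes. Gab1, a docking protein downstream of receptor tyrosine kinases, had values of 10.45, 10.63 and 10.22 on the shPARP2 arrays and 9.76, 9.71 and 9.76 on the scPARP2 arrays, and rose by 0.69 on the log2 scale (limma adjusted p = 0.00722). The insulin receptor Insr, which also binds IGF2, had values of 9.96, 10.09 and 10.27 on the shPARP2 arrays and 10.55, 10.60 and 10.59 on the scPARP2 arrays. It fell by 0.47 (adjusted p = 0.015), and its other probe set by 0.52 (0.00458). Igf1r, the signalling receptor of both ligands, had values of 10.61, 10.71 and 10.46 on the shPARP2 arrays and 10.92, 10.86 and 10.92 on the scPARP2 arrays. All shPARP2 arrays were lower, with a log2 fold change of -0.31 (SE 0.08, limma adjusted p = 0.0464). Grb14, an inhibitor of insulin receptor signalling, and Irs2, the other main adaptor and the last of the 4 genes that fell, named after its values were seen, had log2 fold changes of -0.43 and -0.27 (adjusted p = 0.0498 and 0.031). These falls depended on the arrays used: without scPARP2 replicate 1, 2 or 3 the count of falls in the list was 0, without shPARP2 replicate 1 it was 1, and after centring on the array medians it was 1.

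The enzymes that cleave the binding proteins held a larger change than any of the 10 genes. Of 8 measured proteases and inhibitors 3 rose, 2 fell and 3 did not pass (62.5% passed, beside 24.0% of all genes), with a median log2 fold change of 0.24, beside -0.02 over all genes. Pappa encodes PAPP-A, a secreted metalloprotease that cleaves IGFBP4 and IGFBP5. It had values of 7.49, 7.62 and 7.37 on the shPARP2 arrays and 10.44, 10.20 and 10.35 on the scPARP2 arrays. The nearest arrays were 2.57 apart, and 14.0% of the Pappa signal was left (log2 fold change -2.83, SE 0.10, limma adjusted p = 3.62e-05). Adam12, a membrane protease of fusing myoblasts that cleaves IGFBP3 and IGFBP5, had values of 8.68, 9.02 and 8.69 on the shPARP2 arrays and 7.03, 7.13 and 7.09 on the scPARP2 arrays. It rose 3.27-fold (log2 fold change 1.71, SE 0.11, adjusted p = 0.000288), and so moved opposite to Pappa. The scPARP2 values of Adam12 lie near the medians of whole arrays, 7.04 to 7.18, and the shPARP2 values of Pappa lie not far above them.

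Adam9, another membrane protease, rose by 0.78 on the log2 scale, with means of 12.47 ± 0.04 in shPARP2 cells and 11.69 ± 0.01 in scPARP2 cells (SD, n = 3 each, limma adjusted p = 0.000535). Stc2, whose product stanniocalcin-2 inhibits PAPP-A, rose by 0.55, with means of 10.11 ± 0.05 and 9.56 ± 0.04 (adjusted p = 0.00233). The transcript of Pappa was thus lower and that of its inhibitor Stc2 higher. Stc1, the other stanniocalcin gene of the list, did not pass (log2 fold change 0.24, adjusted p = 0.323). The related protease gene Pappa2 gave different answers by probe set: the brightest did not pass (log2 fold change 0.24, adjusted p = 0.138), while the others rose by 0.57 and 0.65 (adjusted p = 0.0123 and 0.0138). Htra1, the other gene of the list that fell, had a log2 fold change of -0.29 (adjusted p = 0.0205), which was lost without scPARP2 replicate 1, 2 or 3 (0.0795, 0.084 and 0.11) or shPARP2 replicate 1 (0.061). Stc1, Pappa2 and Htra1 were named after their values were seen.

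The CCN proteins, matricellular proteins with an IGFBP-like domain, changed in both directions. Of 6 measured 2 rose, 3 fell and 1 did not pass (83.3% passed, beside 24.0% of all genes). Ccn1 had values of 12.20, 12.11 and 12.18 on the shPARP2 arrays and 11.01, 11.11 and 11.13 on the scPARP2 arrays, a rise of 1.08 on the log2 scale (limma adjusted p = 0.000278). Ccn2, known as connective tissue growth factor, rose by 0.89 (adjusted p = 0.00232). Ccn3 and Ccn5 fell, with log2 fold changes of -1.17 and -1.04 (adjusted p = 0.0102 and 0.0238), and for both replicate 3 of shPARP2 was the lowest array, at 11.29 and 9.65. The call on Ccn5 was lost without scPARP2 replicate 1, 2 or 3 (adjusted p = 0.0768, 0.0755 and 0.0795) or shPARP2 replicate 1 (0.0621).

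**Figure D4:**
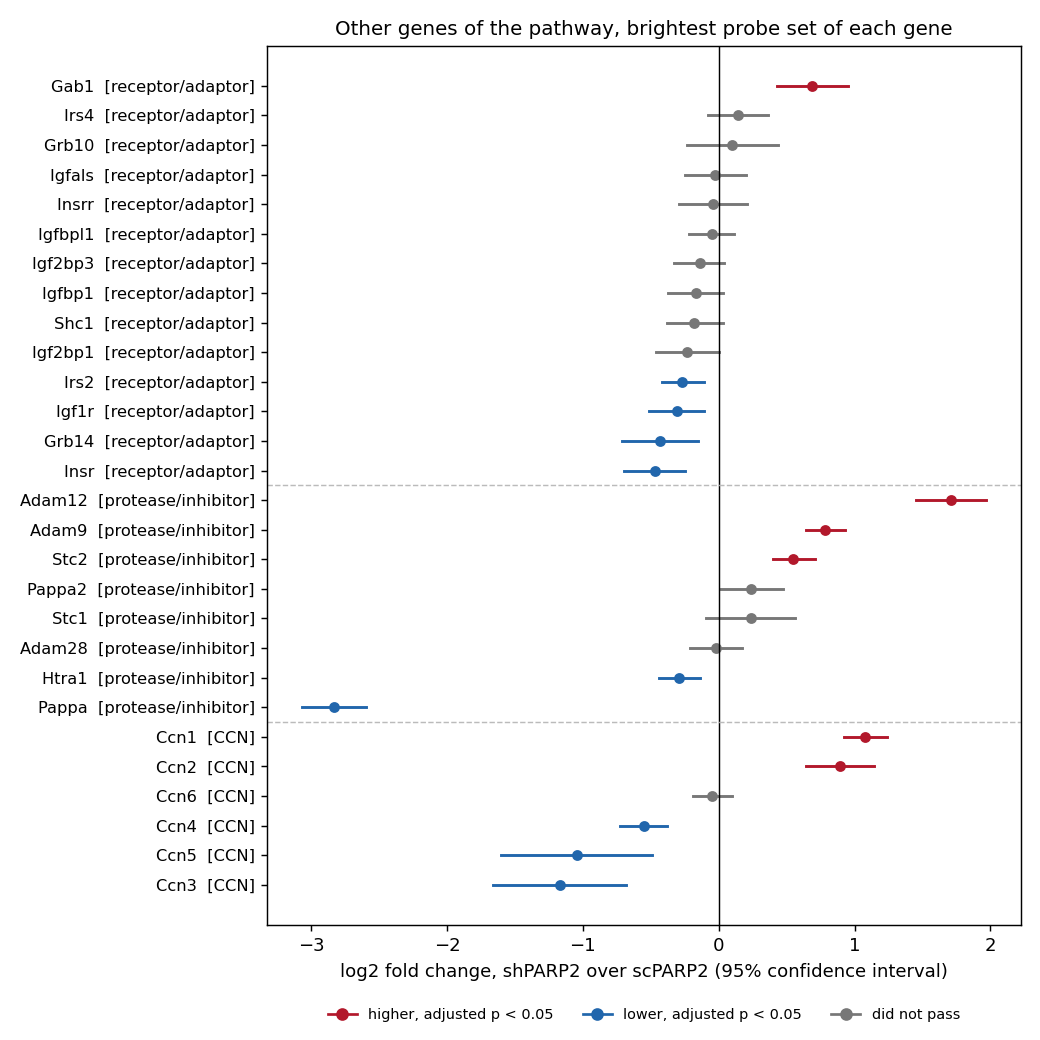
Log2 fold change of shPARP2 over scPARP2 (x axis) for the measured receptors, adaptors and carriers, the proteases and inhibitors, and the CCN proteins (rows, in 3 blocks), with points for the limma estimate of the brightest probe set and bars for the 95% interval (n = 3 arrays per line). Red genes passed as higher, blue genes passed as lower and grey genes did not pass. Pappa lies farthest to the left at -2.83 and Adam12 farthest to the right at 1.71.

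Downstream of the receptors, 20 genes of the PI3K, AKT and mTOR pathway were measured, of which 5 rose, 4 fell and 11 did not pass (45.0% passed, beside 24.0% of all genes), with a median log2 fold change of -0.05. Rheb, the GTPase that activates mTOR, had values of 11.58, 11.79 and 11.81 on the shPARP2 arrays and 10.48, 10.58 and 10.58 on the scPARP2 arrays, and rose 2.26-fold (limma adjusted p = 0.000438). The catalytic subunits of PI3K moved apart: Pik3cb rose by 0.75 on the log2 scale (adjusted p = 0.00984) and Pik3ca fell by 0.53 (0.00519). The regulatory subunit Pik3r3 fell by 0.84 (adjusted p = 0.0119, and 0.0513 without scPARP2 replicate 3). The falls in this list numbered 2, 2 and 1 without scPARP2 replicate 1, 2 and 3.

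AKT holds FOXO factors out of the nucleus, and FOXO factors induce atrophy genes. Of 11 measured FOXO factors and targets 2 rose, 3 fell and 6 did not pass (45.5% passed, beside 24.0% of all genes). Fbxo32, the atrophy-linked ubiquitin ligase atrogin-1, had values of 8.72, 8.75 and 8.93 on the shPARP2 arrays and 10.31, 10.52 and 10.40 on the scPARP2 arrays. The arrays lay at least 1.38 apart, and 32.8% of the signal was left (log2 fold change -1.61, limma adjusted p = 0.000183). Foxo1 fell by 0.64 (adjusted p = 0.00118), while Sesn3, a sestrin induced by FOXO, rose by 0.59 (0.00651). The other rise was that of the factor gene Foxo3, by 0.42 (adjusted p = 0.00939), and Trim63 of the same list did not pass (0.977). Foxo3 and Trim63 were named after their values were seen. The third fall, of the PI3K inhibitor Pik3ip1 by 0.44 (adjusted p = 0.0242), was lost without scPARP2 replicate 2 or 3 (0.0946 and 0.0974) or shPARP2 replicate 3 (0.0502), on centring (0.0563) and with the replicate number as a block (0.0635). With array weights, quantile normalization, a trended and robust variance, dim probe sets left out or single-gene probe sets alone, the falls in this list numbered 5, and without scPARP2 replicate 2 or 3 the rises numbered 1.

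Of 11 other genes listed as imprinted growth genes and measured beside Igf2 and Igf2r, 1 rose, 3 fell and 7 did not pass (36.4% passed, beside 24.0% of all genes), with a median log2 fold change of -0.03. Whether the genes of this list are imprinted in these cells was not measured. Dcn, the proteoglycan decorin, had values of 8.75, 9.15 and 8.43 on the shPARP2 arrays and 11.55, 11.60 and 11.59 on the scPARP2 arrays, and 14.3% of its signal was left (limma adjusted p = 0.000263). Peg3, a paternally expressed zinc finger protein, kept 30.9% of its signal (adjusted p = 0.00184), and the sarcoglycan gene Sgce fell by 0.53 on the log2 scale (0.00564). The rise of Gatm, an enzyme of creatine synthesis, by 0.51 (adjusted p = 0.0483) was lost without each array other than shPARP2 replicate 3 (0.0697 to 0.157).

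Genes of myogenic differentiation rose alongside Igf2. Of 13 measured 9 rose, 1 fell and 3 did not pass (76.9% passed, beside 24.0% of all genes), with a median log2 fold change of 1.02, beside -0.02 over all genes. Myod1, which did not pass, and Myf5, which rose, are also among the myoblast markers above, so the counts share genes. Myf5 was named after its value was seen. Mymk encodes myomaker, a membrane protein needed for myoblast fusion. Its values were 12.28, 12.44 and 12.05 on the shPARP2 arrays and 10.27, 10.47 and 10.36 on the scPARP2 arrays, a 3.69-fold rise (limma adjusted p = 0.000261). The muscle structural genes Tnnc1 and Mylpf rose 2.49-fold and 2.4-fold (adjusted p = 0.000669 and 0.00139), and Myog, the differentiation factor myogenin, named after its value was seen, rose 1.77-fold (0.00152). Mef2c, a muscle transcription factor, was the 1 gene of the list that fell, with 36.6% of its signal left (adjusted p = 0.000304). The part of this difference in the IGF results was not tested.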

How the data were processed

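Total RNA of 3 shPARP2 and 3 scPARP2 samples of C2C12 cells had been hybridized to Affymetrix GeneChip Mouse Gene arrays. The deposited table gives 35556 probe sets as log2 values on each array. The submitters' processing notes name RMA as the authors' method, and no version, build or array library was found for it in the sources. RMA normalizes between arrays and compresses the changes of dim probe sets. A microarray gives no read depth, and the number of arrays limits the precision.

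Gene names came from the platform annotation, an old one. It gives a single gene for 21789 probe sets, several genes for 1621 and none for 12146 (unnamed here). Of the single-gene probe sets, 21698 matched the mouse RefSeq gene table (GRCm38.p6), which also gave neighbouring genes. A gene was read from the brightest probe set that names it alone.

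Following the study's methods, a least squares fit with empirical Bayes (limma 3.58.1, R 4.3.3) set shPARP2 against scPARP2 without covariates. P-values were adjusted by Benjamini-Hochberg over every probe set, and an adjusted p under 0.05 counted as passed. Standard errors are the moderated ones and intervals are at 95%. The fit was tested on simulated data. The text names the 10 genes and, of each pathway list, at most 4 that passed, by size of change, with others marked as named after their values were seen. The members and lists were chosen with earlier results of these data known. Alternatives changed the scaling, variance model, probe sets tested, probe set of a gene, threshold, replicate block and arrays used. Figures were drawn with matplotlib 3.10.9.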

Additional observations from a re-analysis of the deposited data

How the results depend on the processing

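Over 14 alternative fits, the 10 genes gave 140 values, of which 130 kept their direction and their side of the threshold, 9 kept their direction but no longer passed, 1 newly passed (Igf2r) and 0 reversed. The 9 belong to Igf1 and Igfbp7. Without 1 array at a time, 3 to 4 of the 10 genes rose and 4 to 5 fell. At an adjusted p under 0.01, 3 rose and 4 fell, and with a change of at least 1.5-fold also required, 4 rose and 4 fell. Over all probe sets, 6594 passed, against 3787, 3714 and 3621 without scPARP2 replicate 1, 2 and 3, and 3621 to 9083 over all fits. The labels number the replicates alike in both lines, but deviations of arrays with the same number correlated at -0.0507, 0.0925 and 0.0113, and not every array correlated best with its own number, so the samples were not taken as paired. With the replicate number as a block, 4 of the 10 genes rose and 4 fell, Igfbp7 did not pass (limma adjusted p = 0.0531), and 4793 probe sets passed in place of 6594. Only 3 arrays per line were available. How far values near or not far above the array medians stand above background was not tested. Examples are those of Igf1, Igfbp3 and Adam12 in scPARP2 cells, of Pappa in shPARP2 cells and of Igf2r.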

Other observations

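Genes near the members were examined after their values were seen. Within 100 kb of the 10 genes, 25 other genes were measured, of which 1 rose and 7 fell. Thus 8 of the 25 passed, beside 24.0% of all genes, 12.4% as higher and 11.6% as lower. Most of the falls lay around Igfbp6 on chromosome 15, where 6 of 7 measured neighbours fell with it, beside 11.6% of all genes called lower (limma adjusted p under 0.05). Rarg, a retinoic acid receptor 85.4 kb from Igfbp6, had values of 9.98, 10.06 and 9.86 on the shPARP2 arrays and 10.59, 10.59 and 10.59 on the scPARP2 arrays, a log2 fold change of -0.62. The other genes that fell there were Zfp740 (-0.61), the integrin gene Itgb7 (-0.52), Spryd3 (-0.42), Csad (-0.38) and the translation factor gene Eif4b (-0.26), while Tns2 did not pass (-0.12). The calls on Spryd3, Csad and Eif4b were lost without scPARP2 replicate 1, 2 or 3 (limma adjusted p = 0.069 to 0.141), and those on Rarg, Zfp740 and Itgb7 were kept. Rara, another retinoic acid receptor, 65.1 kb from Igfbp4, fell by 0.30, a call lost without scPARP2 replicate 1, 2 or 3 (adjusted p = 0.0796, 0.0751 and 0.0768). Polr2b, which overlaps Igfbp7 in the annotation, rose by 0.35 while Igfbp7 fell, a call also lost without scPARP2 replicate 1, 2 or 3 (0.0772, 0.059 and 0.0696). Ins2, 11.8 kb from Igf2, had a log2 fold change of -0.21 and did not pass.

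Of 19937 other genes, those whose values, centred on their own means, lay nearest to Igfbp2 over the 6 arrays were Hsd17b7, Islr and Cd28, at Euclidean distances of 0.087, 0.113 and 0.211 log2 units. Hsd17b7, an enzyme of cholesterol and steroid synthesis, had values of 11.21, 11.46 and 10.96 on the shPARP2 arrays and 8.91, 9.09 and 8.98 on the scPARP2 arrays. The order of the shPARP2 replicates in Hsd17b7 is that of Igfbp2, with replicate 2 highest and replicate 3 lowest. The log2 fold changes of Hsd17b7, Islr and Cd28 were 2.22, 2.23 and 2.20, beside 2.24 for Igfbp2. Because the genes were picked for nearness over the same arrays, the shared order and similar fold changes follow from that choice. They are not a separate result.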
